A study of Mus musculus with 4 samples.

Results

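The 34 genes described here serve homologous recombination, the Fanconi anaemia pathway and the DNA damage checkpoint. They were taken by symbol from a table of 24340 genes with a value in every library, and all 34 symbols were found. Members were selected on their known roles and on the FPKM values of these same libraries, so every value that sets the inhibitor against its control is given as a description. It comprised 18 recombination genes, 11 Fanconi genes and 5 checkpoint genes. The values come from sequencing of polyadenylated RNA of CAD cells, a line of mouse brain origin that makes catecholamines and grows neurites once serum is taken away. In both groups the cells stood in serum-free medium for 5 days. The control group received DMSO for 24 h, and the ACSS2i group received a quinoxaline urea inhibitor of ACSS2 (called ACSS2i) at 20 µM for the same time. ACSS2 turns acetate into acetyl-CoA, the donor for histone acetylation. There were 2 libraries per group. Nothing in the labels says whether they came from separate cultures, so the spread between them may be partly technical. Both groups are 1 cell line grown as a culture, and in such bulk samples fewer cells of a kind and less RNA per cell cannot be told apart.

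Homologous recombination rebuilds a broken chromosome from its sister copy and is therefore mainly available in S and G2 phase. The break is first trimmed to single-stranded DNA, BRCA1 and BRCA2 with their partners then prepare it for strand exchange, and further cofactors, RAD54 proteins among them, help it to find and invade the matching strand. The Fanconi pathway clears crosslinks between DNA strands: a core complex adds ubiquitin to the FANCD2 and FANCI pair, which recruits nucleases and recombination proteins. ATM and ATR sense breaks and stalled forks, and CHK1, CHK2 and claspin pass the signal on to the cell cycle. Many of these genes are transcribed mostly in dividing cells, while others are kept on in resting cells.

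Levels are in FPKM, a fragment number corrected for transcript length and library size. The mean FPKM was higher with the inhibitor in 33 of the 34 genes. In 23 of the 34 the lower ACSS2i value exceeded the higher DMSO value, in 0 of the 34 the reverse held, and the other 11 overlapped. Among 13125 genes above the table's floor of 0.01 FPKM in every library, 18.1% had both ACSS2i libraries above and 19.3% had both below. The ratio of the group means was at least 2 in 15 of the 34, against 4.05% of those genes, and its median was 1.63, against 1.01. It ran from 0.962 for Fancc to 14.5 for Fanci. The genes split by their level in DMSO: the 13 with a DMSO mean under 1 FPKM had ratios from 2.45 to 14.5, and 2 of the 21 with a higher DMSO mean, Brca1 and Blm, had a ratio of at least 2. The DMSO mean is also the denominator of the ratio, so the level and the ratio are not independent measures.

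**Figure D1:**
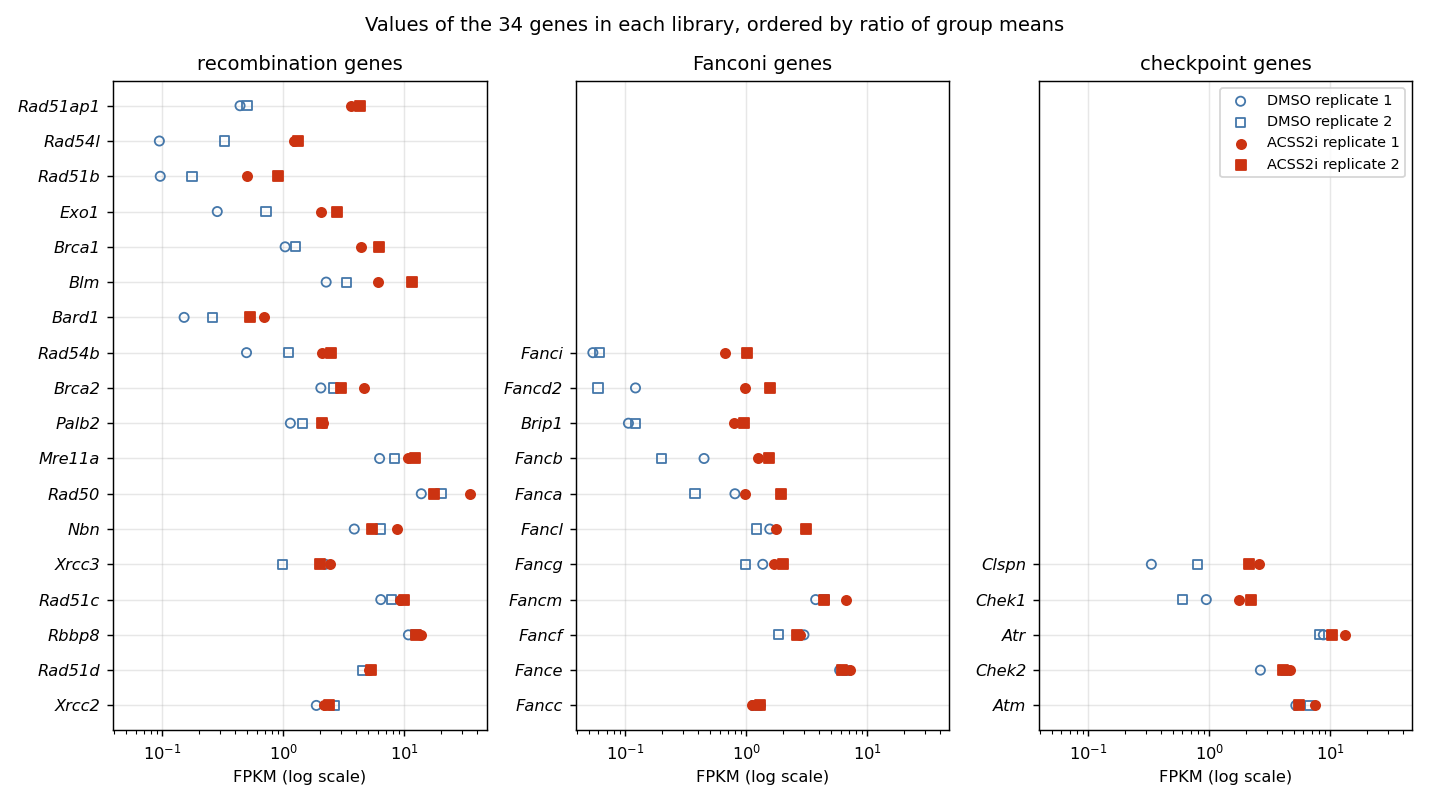
FPKM of each of the 34 genes (log axis) in the 2 DMSO libraries (open symbols) and the 2 ACSS2i libraries (filled symbols), with circles for replicate 1 and squares for replicate 2, in a panel for each role and ordered by the ratio of group means. At the top of each panel the open and filled symbols stand apart, and at the bottom (Xrcc2, Fancc, Atm) they overlap.

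By limma, a moderated test fitted to log2(FPKM + 1) over the 11486 genes that averaged 1 FPKM or more, 0 of the 27 genes that entered passed a Benjamini-Hochberg adjusted p of 0.05, as 0.0261% of all genes tested did. The smallest adjusted p was 0.320, for Rad51ap1. At an unadjusted p under 0.05 there were 7 of the 27 higher and 0 lower, against 3.29% and 3.67% of all genes tested. The 7 were Rad51ap1, Rad54b, Exo1 and Clspn, with a DMSO mean under 1 FPKM, and Brca1, Blm and Mre11a. The 7 genes under the filter were Bard1, Rad51b, Rad54l, Fancb, Fancd2, Fanci and Brip1, and their ratios ran from 2.98 to 14.5. Another 6 (Rad51ap1, Rad54b, Exo1, Fanca, Chek1 and Clspn) passed it with a DMSO mean under 1 FPKM, that is, through their ACSS2i values, so the count of 7 is partly set by the filter. The genes nearest to the filter were Fancb, with a mean of 0.852 FPKM, and Fanca, with 1.02 FPKM. For a single gene, exact permutation of 4 libraries gives no p below 0.333.

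The depth differed between libraries and set the precision of the low values. Read from the steps between low values, it was 29.2% of DMSO replicate 1 in DMSO replicate 2, 67.5% in ACSS2i replicate 1 and 85.7% in ACSS2i replicate 2. For 22 of the 34 genes the 4 values, corrected for depth, stood in the ratio of whole numbers, each to within 0.01, as in 60.5% of the tested genes above the floor. The fragments given below are the smallest whole numbers in those ratios. The true numbers may be a whole multiple, which would narrow the intervals. In DMSO replicate 1 such a fragment stood for 0.0123 FPKM in Brca1, whose longest coding transcript has 6572 bases. It stood for 0.142 FPKM in Mre11a (5660 bases), 0.0354 in Brip1 (6931 bases) and 0.0332 in Clspn (5027 bases). A multiple is therefore likely in these 3 genes, unless a shorter transcript was expressed. Ratios of fragment rates pool the libraries of a group, so a deeper library weighs more than in the ratio of group means. They carry an exact 95% interval that covers counting error only. It lay above 1 for 19 of the 22 genes and included 1 for Xrcc2, Xrcc3 and Fancf. Of the 8392 genes with whole fragments it lay above 1 in 28.8% and below 1 in 23.1%. The same kind of interval also left out 1 between libraries of 1 group in many genes, as given further on, so it does not cover the spread between replicates.

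**Figure D2:**
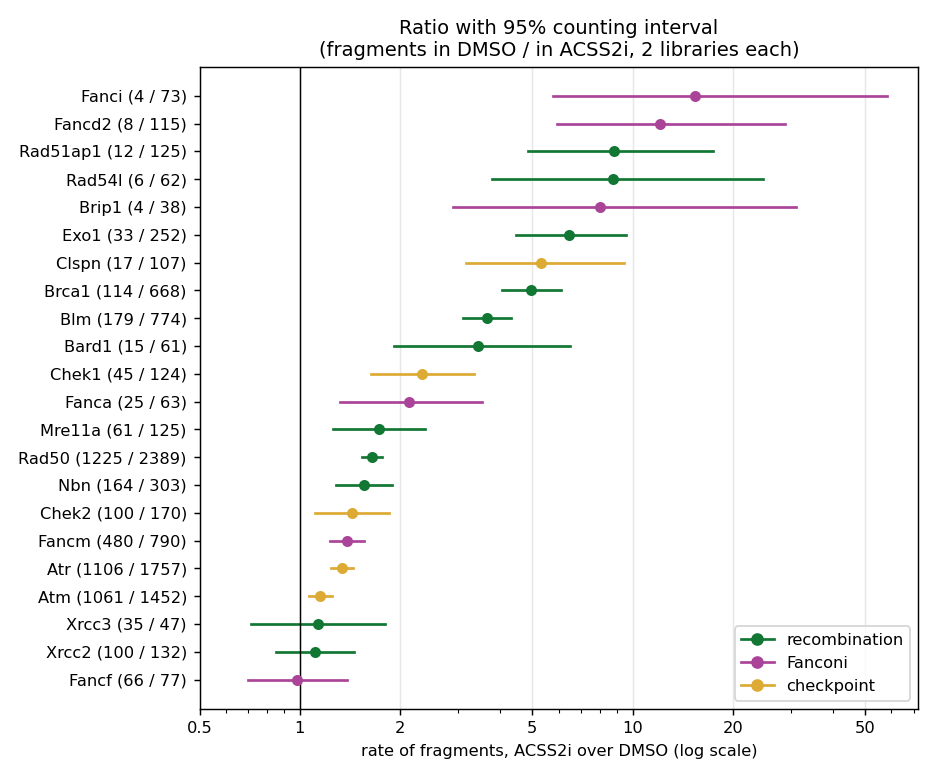
Ratio of fragment rates, ACSS2i over DMSO (log axis), for the 22 genes with whole fragment numbers, as a point with its exact 95% counting interval, coloured by role; the numbers beside each symbol are fragments in DMSO and in ACSS2i over 2 libraries each. Fanci and Fancd2 stand at the top with 4 and 8 fragments in DMSO, and the intervals of Xrcc3, Xrcc2 and Fancf cross 1.

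Cell identity and division were read from lists of markers. Of 14 neuronal and catecholaminergic markers 13 averaged 1 FPKM or more, with Th, the first enzyme of catecholamine synthesis, at 2.92 to 4.09 FPKM, and Dbh, which makes noradrenaline, was under 1 FPKM in every library. Their summed level was 8401 and 11609 FPKM with DMSO against 5475 and 4680 with the inhibitor, most of it from the secretory granule protein Chgb. Without Chgb the sums were 1600 and 1599 FPKM with DMSO against 1022 and 2171 with the inhibitor, which overlap. Of the 13 tested markers 2 were lower without overlap and 0 higher, against 18.3% and 19.0% of all genes tested. Their median ratio was 0.983, but their median log2 fold change was -0.374. It was positive in 5 of the 13, against 52.2% of all genes tested. Of 26 markers of fibroblasts, glia, leukocytes, endothelium and epithelium, 21 were under 1 FPKM in every library and 6 were at the floor in all 4, among them Lum, Olig2, Epcam and Krt18, summing to 9.91 and 10.3 FPKM with DMSO against 9.77 and 8.97 with the inhibitor. The 14 cell division genes listed for context summed to 57.9 and 91.1 FPKM in DMSO and to 178 and 346 FPKM in ACSS2i. All 14 were higher in both ACSS2i libraries, with a median log2 fold change of 2.03. The part of dividing cells in the levels of the repair genes was not tested.

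The promoters of the genes were searched for short words that factors of cell cycle transcription are known to bind. RefSeq promoters (GRCm38.p6), from 250 bases before to 50 bases after each annotated start, were at hand for 26 of the 34 genes. Xrcc2, Fancd2, Nbn, Exo1, Rad51d, Rbbp8, Rad54b and Rad50 had none. The E2F-type words TTTCCCGC, TTTCGCGC, TTTGGCGC and TTTGCCGC, on either strand, were in 7 of 29 promoters, 24.1%, against 4.02% of the promoters of all genes tested and 2.26% of all promoters. These 7 belonged to 6 genes, Clspn, Bard1, Brca2, Rad51c (at both of its starts), Fancg and Chek2, whose ratios ran from 4.15 for Clspn to 1.26 for Chek2. Of the 12 genes with a ratio of at least 2 and a promoter 2 held such a word, and of the 14 with a smaller ratio 4 did. The CCAAT box word, CCAAT on either strand, was in 69.0% of the promoters against 38.2% for all genes tested and 37.4% of all promoters, and in 9 of the 12 and 9 of the 14 genes. The word TTTGAA of the cell cycle genes homology region was in 6.90% against 11.2% and 17.9%. Counted by gene, the E2F-type share was 23.1% against 4.91% of the tested genes with a promoter. A match is a run of letters and not a shown binding site. The word lay 209 bases before the start in Bard1, 168 in Brca2, 152 in Chek2, 52 in Fancg and 5 at the Rad51c start shown, and in Clspn it lay 22 bases into the transcript. The E2F-type words are shown in capitals below with the bases around them, 5′ to 3′ on the strand of the gene; a word that reads as its reverse complement, such as GCGGGAAA, lies on the other strand. The last line shows the stretch of the Brip1 promoter with 3 CCAAT words, all as ATTGG in capitals, at 99, 67 and 34 bases before the start; it was chosen after the values were seen.
Clspn, chr4:126556955-126557009, plus strand: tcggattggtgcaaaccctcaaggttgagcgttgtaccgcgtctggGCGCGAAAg
Bard1, chr1:71103128-71103222, minus strand: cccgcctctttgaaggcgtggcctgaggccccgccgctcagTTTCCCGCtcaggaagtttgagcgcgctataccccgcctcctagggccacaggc
Brca2, chr5:150522407-150522506, plus strand: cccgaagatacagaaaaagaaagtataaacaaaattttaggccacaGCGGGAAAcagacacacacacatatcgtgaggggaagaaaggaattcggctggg
Rad51c, chr11:87404925-87405005, minus strand: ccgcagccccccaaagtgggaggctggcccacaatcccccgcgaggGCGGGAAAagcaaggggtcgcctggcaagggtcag
Fancg, chr4:43010300-43010399, minus strand: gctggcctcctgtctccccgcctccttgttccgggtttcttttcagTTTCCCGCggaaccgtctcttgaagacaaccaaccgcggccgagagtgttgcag
Chek2, chr5:110839785-110839884, plus strand: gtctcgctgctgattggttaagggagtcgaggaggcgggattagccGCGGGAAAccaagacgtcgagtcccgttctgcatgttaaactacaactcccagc
Brip1, chr11:86201213-86201302, minus strand: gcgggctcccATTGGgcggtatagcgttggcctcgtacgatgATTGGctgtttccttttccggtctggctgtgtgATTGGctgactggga

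The mediators of strand exchange differed in size but not in direction. Brca1 (chromosome 11, 101488764 to 101551955, minus strand), the ubiquitin ligase that favours recombination over end joining, was at 1.03 and 1.27 FPKM with DMSO against 4.36 and 6.16 with the inhibitor. This rested on 84, 30, 239 and 429 fragments in that order of libraries, a rate ratio of 4.94 (95% interval 4.04 to 6.08), and the log2 fold change was 1.53 ± 0.29 (SE). Its obligate partner Bard1 was scarcer, at 0.151 and 0.259 FPKM with DMSO against 0.695 and 0.529 with the inhibitor, on 15 fragments in DMSO and 61 in ACSS2i (rate ratio 3.43, interval 1.92 to 6.49). Both ACSS2i libraries stood above both DMSO libraries in each partner. The other pair, Palb2 and Brca2, stood closer to DMSO. Palb2, the bridge between BRCA1 and BRCA2, was at 1.14 and 1.44 FPKM with DMSO against 2.13 and 2.08 with the inhibitor. Brca2 (chromosome 5, 150522630 to 150570329, plus strand), which prepares single-stranded DNA for strand exchange, was at 2.04 and 2.58 FPKM with DMSO against 4.60 and 2.97 with the inhibitor. The groups did not overlap in any of the 4 mediators, but for Brca2 the value of ACSS2i replicate 2 lay nearer to DMSO replicate 2 than to ACSS2i replicate 1.

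Among Rad51b, Rad51c, Rad51d, Xrcc2 and Xrcc3, related proteins that assist strand exchange in complexes with each other, Rad51b stood apart. It was at 0.0960 and 0.175 FPKM with DMSO against 0.498 and 0.896 with the inhibitor, a ratio of 5.14. Whole fragments were not found for it, so its counting error is unknown. Rad51c, which works in complex with it, was at 6.38 and 7.88 FPKM with DMSO against 9.28 and 10.0 with the inhibitor, without overlap and with a ratio of 1.35. Rad51d, Xrcc2 and Xrcc3 overlapped between groups and had ratios of 1.07, 1.00 and 1.39, with Rad51d between 4.50 and 5.32 FPKM and Xrcc2 between 1.87 and 2.62 FPKM over the 4 libraries. Xrcc2 gave a rate ratio of 1.11 (interval 0.852 to 1.46) on 100 and 132 fragments. Xrcc3 was at 2.22 and 0.982 FPKM with DMSO against 2.44 and 2.00 with the inhibitor. The smallest whole number for its low DMSO value was 4 fragments.

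The 3 cofactors that act during strand invasion were all higher in both ACSS2i libraries. Rad51ap1, which stimulates the joining of the strands, was at 0.438 and 0.501 FPKM with DMSO against 3.61 and 4.26 with the inhibitor. Its rate ratio was 8.78 (interval 4.85 to 17.5) on 12 and 125 fragments, and its log2 fold change was 1.74 ± 0.29 (SE), the largest of the 27 genes in the limma fit. Rad54l, the motor that remodels the invading filament, was at 0.0944 and 0.324 FPKM with DMSO against 1.21 and 1.32 with the inhibitor. Each DMSO value rested on 3 fragments, and the rate ratio was 8.71 (interval 3.78 to 24.6). In GENCODE M21, 15.4% of its exon bases are also exon of Lrrc41 on the opposite strand. Its relative Rad54b was at 0.496 and 1.10 FPKM with DMSO against 2.08 and 2.46 with the inhibitor. For Rad54b, 35.8% of the exon bases also belong to Fsbp on the same strand, so reads may have been divided between these genes.

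Among the genes of end resection, Exo1 and the helicase Blm stood well above DMSO and the end-binding complex less so. Exo1, the long-range resection nuclease, was at 0.284 and 0.718 FPKM with DMSO against 2.04 and 2.79 with the inhibitor, a rate ratio of 6.44 (interval 4.47 to 9.56) on 33 and 252 fragments. Blm, the helicase that aids resection and dissolves joined DNA, was at 2.26 and 3.34 FPKM with DMSO against 6.04 and 11.5 with the inhibitor (rate ratio 3.65, interval 3.09 to 4.31). The complex that first binds and trims the end had higher DMSO levels than either. Mre11a, its nuclease, was at 6.23 and 8.26 FPKM with DMSO against 10.7 and 12.2 with the inhibitor. Rad50, its tether, was at 13.8 and 20.1 FPKM with DMSO against 34.5 and 17.5 with the inhibitor, and Nbn, its signalling subunit, was at 3.85 and 6.31 FPKM with DMSO against 8.74 and 5.39 with the inhibitor. Both overlapped between groups because ACSS2i replicate 2 lay below DMSO replicate 2. Rbbp8, which encodes the CtIP cofactor of the nuclease, was at 10.8 and 12.4 FPKM with DMSO against 13.6 and 12.5 with the inhibitor, without overlap but with a ratio of 1.13.

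In the Fanconi pathway the substrates of the core complex had larger ratios to DMSO than any gene of the core complex. This order depends on the measure. On log2(FPKM + 1) without the filter, the core gene Fancb changed by 0.853, against 0.789 for Fanci and 1.04 for Fancd2. Fancd2 (chromosome 6, 113531682 to 113597017, plus strand) was at 0.121 and 0.0595 FPKM with DMSO against 0.976 and 1.56 with the inhibitor. Its partner Fanci (chromosome 7, 79391929 to 79450264, plus strand) was at 0.0539 and 0.0616 FPKM with DMSO against 0.665 and 1.01 with the inhibitor. Nearly all of these fragments came from the ACSS2i libraries. Fancd2 had 7, 1, 38 and 77 fragments in the order DMSO 1, DMSO 2, ACSS2i 1 and ACSS2i 2, and Fanci had 3, 1, 25 and 48. The rate ratios were 12.1 (interval 5.95 to 28.7) for Fancd2 and 15.4 (interval 5.76 to 58.0) for Fanci. Brip1, the FANCJ helicase that binds BRCA1, was at 0.106 and 0.121 FPKM with DMSO against 0.786 and 0.949 with the inhibitor, on 4 fragments in DMSO and 38 in ACSS2i (rate ratio 8.01, interval 2.88 to 30.9). In all 3 genes the smallest whole number for DMSO replicate 2 was 1 fragment, so the size of the ratio is loosely known. For Brip1 the true number was likely a multiple of it, as stated above. In GENCODE M21, 16.0% of the exon bases of Fanci are also exon of Polg on the opposite strand, and for Fancd2 this share is 3.24%, with Fancd2os.

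The 8 genes of the core complex had a median ratio of 1.46, and 4 of them overlapped between groups. Fancb, a subunit of the catalytic module, was at 0.447 and 0.198 FPKM with DMSO against 1.24 and 1.53 with the inhibitor, a ratio of 4.29. Fanca was at 0.805 and 0.376 FPKM with DMSO against 0.975 and 1.92 with the inhibitor (rate ratio 2.12, interval 1.32 to 3.52, on 25 and 63 fragments). Fancl, the ubiquitin ligase of the complex, was at 1.56 and 1.22 FPKM with DMSO against 1.75 and 3.10 with the inhibitor. For Fanca and Fancl the groups were close in 1 pair of libraries, ACSS2i replicate 1 and DMSO replicate 1. Fancg also did not overlap, at 1.37 and 0.981 FPKM with DMSO against 1.68 and 1.99 with the inhibitor. The remaining subunits were Fancc, Fance, Fancf and Fancm, the anchor that brings the complex to DNA, with ratios of 0.962, 1.05, 1.12 and 1.36. Fancc lay between 1.12 and 1.31 FPKM over the 4 libraries, Fance between 5.90 and 7.13 FPKM and Fancf between 1.83 and 2.99 FPKM. Fancf gave a rate ratio of 0.984 (interval 0.699 to 1.39, counting error only), against the 1.12 of its group means. Fancm was at 3.74 and 4.42 FPKM with DMSO against 6.66 and 4.41 with the inhibitor, and its groups overlapped because ACSS2i replicate 2 was level with DMSO replicate 2. Some exon bases of Fanca, Fancf and Fancl, 10.5%, 15.0% and 13.7%, are also exon of a gene on the opposite strand (Zfp276, Gas2 and Vrk2).

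Of the checkpoint genes, those of the ATR branch that act below the sensor kinase stood furthest from DMSO. Clspn, claspin, which presents CHK1 to ATR, was at 0.332 and 0.797 FPKM with DMSO against 2.56 and 2.13 with the inhibitor (rate ratio 5.31, interval 3.16 to 9.45, on 17 and 107 fragments). Chek1, the effector kinase CHK1, was at 0.944 and 0.597 FPKM with DMSO against 1.77 and 2.20 with the inhibitor (rate ratio 2.32, interval 1.64 to 3.34). The sensor kinase Atr (chromosome 9, 95857597 to 95951781, plus strand) was at 8.76 and 8.19 FPKM with DMSO against 13.2 and 10.2 with the inhibitor. Its rate ratio was 1.34 (interval 1.24 to 1.45) on 1106 and 1757 fragments. The ATM branch overlapped between groups, but its rate ratios also lay above 1. They were 1.15 (interval 1.07 to 1.25) for Atm and 1.43 (interval 1.11 to 1.85) for Chek2, the latter above that of Atr. Atm (chromosome 9, 53439149 to 53536740, minus strand) was at 5.18 and 6.75 FPKM with DMSO against 7.51 and 5.51 with the inhibitor, and its effector kinase Chek2 was at 2.64 and 4.27 FPKM with DMSO against 4.66 and 4.04 with the inhibitor.

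The roles did not separate as wholes. The median ratio was 1.63 for the 18 recombination genes, 1.74 for the 11 Fanconi genes and 1.38 for the 5 checkpoint genes. The groups did not overlap in 13 of 18, 7 of 11 and 3 of 5, all higher with the inhibitor. Of the genes above the floor in every library 18.1% were higher without overlap and 19.3% lower. The lowest ratio was 1.00 among recombination genes, 0.962 among Fanconi genes and 1.09 among checkpoint genes, and the highest were 8.38, 14.5 and 4.15. The difference between roles was not tested.

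The ACSS2i libraries differed from each other in many of the 34 genes. Of the 15 genes with a ratio of at least 2, 13 were higher in ACSS2i replicate 2 than in replicate 1, the exceptions being Bard1 and Clspn. Of the other 19 genes 7 were, and of all genes tested 51.6% were. For 10 of the 22 genes with whole fragments the interval of the ratio between the ACSS2i libraries left out 1, 5 in each direction, which is near the 26.8% (replicate 2 higher) and 25.9% (replicate 1 higher) of all genes with whole fragments. Replicate 2 was the higher in Brca1 (1.41, interval 1.20 to 1.66), Blm (1.91, interval 1.63 to 2.24), Exo1, Fanca and Fancd2. Replicate 1 was the higher in Rad50 (1.97, interval 1.82 to 2.15), Nbn (1.62, interval 1.29 to 2.05), Fancm, Atm and Atr. The former all had a ratio to DMSO of at least 2 and the latter all had a smaller one. The cell division genes listed above were also higher in ACSS2i replicate 2, at 346 FPKM summed against 178 FPKM, and their part in this split was not tested. Between the DMSO libraries the interval left out 1 for 6 of the 22 genes (Rad50, Nbn, Exo1, Blm, Atm and Chek2), all higher in replicate 2, against 14.4% of all genes with whole fragments.

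**Figure D3:**
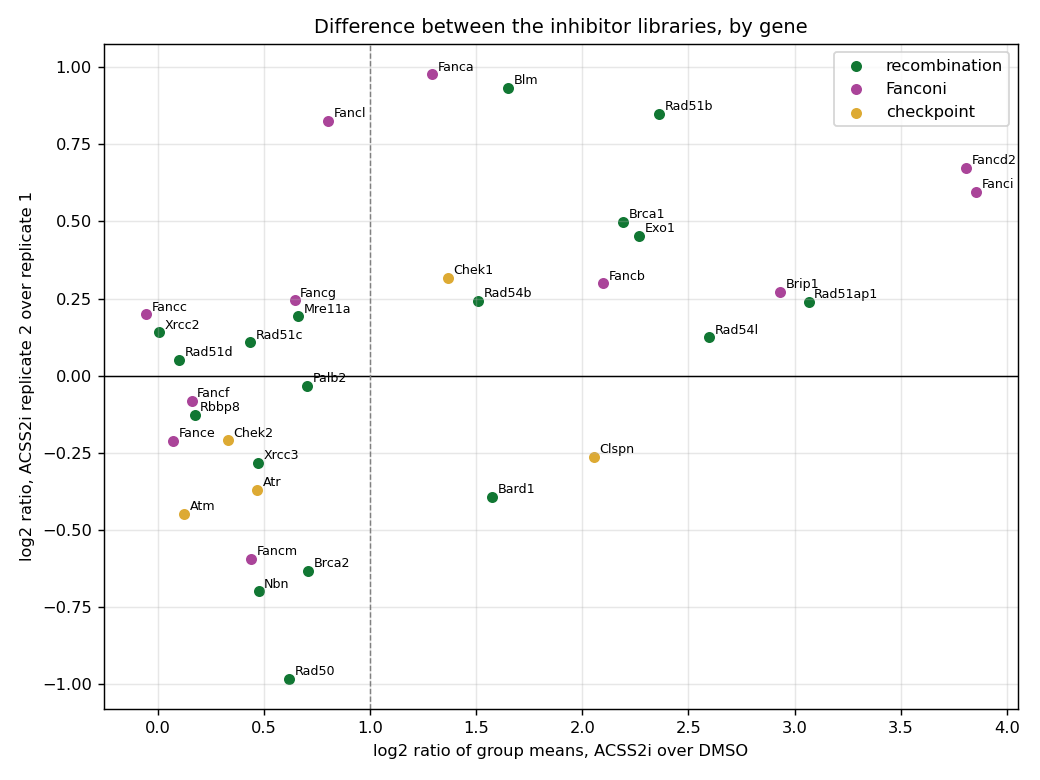
For each of the 34 genes, the log2 ratio of ACSS2i replicate 2 to replicate 1 (vertical) against the log2 ratio of group means, ACSS2i over DMSO (horizontal), coloured by role; the dashed line marks a ratio of 2. To the right of it 13 of 15 genes lie above 0, and Rad50, Nbn and Brca2 lie lowest on the left.

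Other genes of the same pathways were read from lists drawn up by pathway, with earlier results of these data known. Of all genes tested 52.2% had a positive log2 fold change, 3.29% were higher at an unadjusted p under 0.05 and 3.67% lower. Of 45 other recombination and Fanconi genes 42 were tested: 31 had a positive log2 fold change, 10 had an unadjusted limma p under 0.05, all higher, and 0 passed adjustment. Their median log2 fold change was 0.24, against 0.42 for the 27 tested genes described above and 0.02 for all genes tested. Gen1, a nuclease that cuts joined DNA, was at 0.335 and 0.265 FPKM with DMSO against 1.76 and 1.77 with the inhibitor. Ube2t, the conjugating enzyme that works with FANCL, was at 1.11 and 1.47 FPKM with DMSO against 2.75 and 5.77 with the inhibitor. The enzyme that reverses that step, Usp1, was at 15.0 and 15.3 FPKM with DMSO against 21.3 and 23.9 with the inhibitor. These 3 genes were named after their values were seen, and their groups did not overlap.

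Of 27 other checkpoint and damage signalling genes 26 were tested, 20 were positive, 3 had an unadjusted p under 0.05, all higher (Wee1, Topbp1 and Bre), and the median log2 fold change was 0.15. Topbp1, an activator of ATR singled out from this list, was at 9.44 and 9.81 FPKM with DMSO against 13.1 and 27.0 with the inhibitor. Of the same list, Atrip, Rad1, Hus1 and Rad17 overlapped between groups, and Rad9a and Etaa1 did not. For end joining, the route that needs no sister copy, 8 of 9 tested genes were positive with a median of 0.33, and 1 had an unadjusted p under 0.05, Xrcc5 (Ku80), with a ratio of 1.74 and no overlap. Of 28 tested genes of excision and mismatch repair 19 were positive with a median of 0.22, and 2 had an unadjusted p under 0.05, among them the mismatch repair gene Pms2. For end joining and for excision and mismatch repair the numbers of low p-values are too small to be set against the share over all genes. In each of these 3 lists 0 genes passed adjustment by limma. The differences between the lists were not tested.

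**Figure D4:**
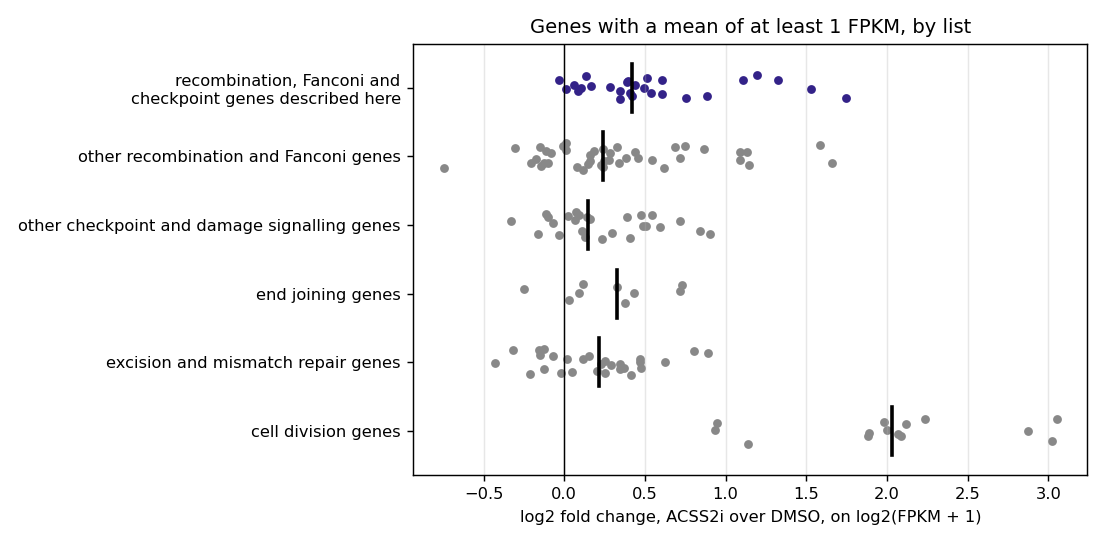
Log2 fold change, ACSS2i over DMSO on log2(FPKM + 1), of each gene with a mean of at least 1 FPKM (points, spread vertically only to be seen) in the genes described here and in 5 other lists; the black bars are medians. The medians of the repair and checkpoint lists lie between 0.15 and 0.42, and that of the cell division genes is 2.03.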

How the data were processed

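The deposited file lists 24341 genes with a column for each library, under a header without a unit. The values were taken as FPKM because the submitters' processing notes name Cufflinks 2.2.1 and Cuffdiff, beside bcl2fastq 02.14.01.07, STAR 2.3.0 and the build mm10. The authors call the deposited values adjusted; how they adjusted them is not given in the sources used here. Sept7 carried a failure mark and was left out, which left 24340 genes.

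The members and lists were chosen with earlier results of these data known. ACSS2i and DMSO, 2 libraries each, entered a two-sided limma 3.58.1 fit (R 4.3.3, mean-variance trend) of log2(FPKM + 1) over genes averaging 1 FPKM or more, with Benjamini-Hochberg adjustment over all of them. The fit was tested on simulated data. Relative depths were read from the commonest ratio, relative to DMSO replicate 1, of values up to 0.5 FPKM. Smallest fragment numbers up to 400 were searched. Intervals are exact (Clopper-Pearson, scipy 1.17.1). Gene positions and exon overlaps are from GENCODE M21 (GRCm38). The rule for named genes was up to 20 members with the largest change among those that averaged 1 FPKM or more, plus 11 fixed ones; the others are given by values or ranges, so that all 34 are accounted for. Alternatives were another pseudocount (0.1 or 5), no filter or a minimum mean of 5 FPKM, each library left out, quantile normalization, median centring and a replicate block. Listed genes that are not members enter the counts, and most are not reported singly here.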

Additional observations from a re-analysis of the deposited data

How the results depend on the processing

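Over all 34 genes without a filter, with each library left out in turn (chosen after seeing the data), the number with a higher ACSS2i mean stayed between 31 and 32 and the median ratio of means between 1.69 and 1.93. Of the 27 genes in the limma fit 20 kept their sign under every alternative run for them, and Atm, Fancc, Fance, Fancf, Rad51d, Xrcc2 and Xrcc3 changed sign in at least 1. Over all genes limma called 3, against 6 with a pseudocount of 0.1, 0 with a pseudocount of 5 (795 at an unadjusted p under 0.05), 0 without a filter (1342 unadjusted, against 799) and 13 to 26 with a library left out (362 to 1662 unadjusted). With the replicate block it called 8 genes. The replicate numbers are not stated to pair the libraries, and the differences between replicates of the 2 groups were correlated at -0.017 across genes. In none of these fits did a gene of the 34 pass adjustment.

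The median log2 fold change of the tested members, 0.42, was 0.56 with a pseudocount of 0.1, 0.21 with 5, and 0.27 to 0.53 with a library left out. For recombination genes it was 0.51 and became 0.27 with a pseudocount of 5. For Fanconi genes it was 0.35 and became 0.15 with a pseudocount of 5, 0.49 unfiltered, 0.063 at a minimum mean of 5 FPKM and 0.11 to 0.38 with a library left out. A minimum mean of 5 FPKM left 10 genes, of which 10 were positive and 5 did not overlap, against 26 and 16 of the 27. Without overlap in either direction there were 17 to 25 with a library left out. The 25 came without DMSO replicate 2 and were 23 higher and 2 lower; of all genes tested 31.0% were then higher and 30.9% lower, against 19.0% and 18.3% with all libraries, since fewer libraries overlap less. The medians of all members and of the Fanconi genes were lowest among these 4 fits without ACSS2i replicate 1. The shallow DMSO replicate 2 limits the low values most, since few fragments there set the values of Fancd2, Fanci and Brip1.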
